A study of Homo sapiens with 6 samples.

Results

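Transcripts that keep an intron were measured in EoL-1, an established human cell line from an eosinophilic leukaemia. Every library came from CRISPR/Cas9-edited cells: 3 libraries carried a JUN knockout and 3 an ATF3/JUN double knockout, so JUN was targeted in both groups and the comparison concerned the added ATF3 edit. Polyadenylated RNA was sequenced from cultured cells, and the sources used here give no unedited library, guide or allele. The names of the deposited files give each library of a group its own clone code, but the labels do not state separate clones or cultures, so a p-value reflects only how much these libraries vary.

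The transcripts described are those annotated as retained_intron in GENCODE release 29 with a mean of at least 20 estimated reads over the 6 libraries. The files list 177456 transcripts, 27070 matched that annotation, and 7613 of them, in 3931 host genes, reached the minimum. At that limit, NELFA-214 had a mean of 20.0 reads and was included, and DCAF11-212 had a mean just under it and was not. Their log2 fold changes were −0.69 and −0.64. The median retained-intron transcript was 1133 bases long, had a mean of 63.7 reads and held 3.69% of the estimated reads of its gene. Of the 3925 host genes with a transcript that passed the filter on low counts, 2060 had a single such transcript and the richest had 12.

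Splicing removes introns while or after a gene is transcribed, and a transcript that keeps an intron usually cannot make the full protein. Some such transcripts wait in the nucleus and are spliced later, and others are destroyed by nonsense-mediated decay once they reach the ribosome. Genes for splicing factors, such as the SR proteins and the CLK kinases that phosphorylate them, are known for adjusting their own output by keeping introns. In short-read data the level of such a transcript is an estimate, because most of its exons are shared with the spliced transcripts of its gene and Salmon apportions the shared reads.

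The libraries held 26146998 to 29567970 estimated reads. ATF3 was at 20.2, 13.7 and 8.89 CPM (reads of a transcript or gene scaled to a common library total) in the JUN knockout and at 13.1, 10.0 and 7.63 CPM in the double knockout, and the groups overlapped (log2 fold change −0.48, SE 0.32, edgeR adjusted p = 0.931). JUN was at 13.2, 27.2 and 24.6 CPM and at 13.8, 16.6 and 25.7 CPM (−0.21, SE 0.32, edgeR adjusted p = 0.974). These mRNA levels did not check the edits. Of the 8 eosinophil markers examined, EPX, CLC and IL5RA were at 0 in every library, PRG2, SIGLEC8 and CCR3 stayed under 1 CPM, and RNASE2 and RNASE3 reached at least 29.9 and 5.19 CPM. The T-cell markers were at or near 0, and of the B-cell, erythroid, epithelial and fibroblast markers only CD79A (2.07 to 7.73 CPM) and KRT8 (1.34 to 3.48 CPM) exceeded 1 CPM.

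The kept introns that could be read were short. An intron was read only where it lay whole inside a single exon, so introns longer than the exon could not count. The median retained-intron transcript had 1133 bases, which limits this comparison. Of the introns that coding transcripts of the host genes splice out, 5454 lay whole inside an exon of a retained-intron transcript and had a median length of 311 bases, against 1461 bases for the other 66366. Introns under 300 bases made up 48.5% of the first set and 18.2% of the second. Counting introns of non-coding transcripts too, 7059 distinct introns were kept, in 3530 of the 7613 transcripts. Of the 7048 with a sequence, 6817 (96.7%) began with GT and ended with AG, 149 ran from GC to AG, and 14 from AT to AC. AT and AC are the ends of only some introns of the minor spliceosome, so 14 is not a count of its introns.

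The sequences below show introns kept by transcripts that were lower in the double knockout. A kept intron of an abundant ribosomal protein transcript whose groups overlapped in CPM, though not in share of its gene's reads, follows them. They are read 5′ to 3′ on the gene's strand from the GENCODE release 29 transcripts (GRCh38), with the intron in capitals and 10 flanking exon bases in lower case. Introns over 300 bases are shown by their first and last 40 bases. The intron of AUP1-204 lies at chr2:74528936-74529131 on the minus strand (196 bases). FOXM1-206 keeps chr12:2864496-2864682, minus strand (187 bases), ARL6IP4-203 keeps chr12:122982539-122982619, plus strand (81 bases), and CTPS1-213 keeps chr1:40996069-40997393, plus strand (1325 bases). RPS2-213 keeps chr16:1962657-1962735, minus strand (79 bases).
AUP1-204: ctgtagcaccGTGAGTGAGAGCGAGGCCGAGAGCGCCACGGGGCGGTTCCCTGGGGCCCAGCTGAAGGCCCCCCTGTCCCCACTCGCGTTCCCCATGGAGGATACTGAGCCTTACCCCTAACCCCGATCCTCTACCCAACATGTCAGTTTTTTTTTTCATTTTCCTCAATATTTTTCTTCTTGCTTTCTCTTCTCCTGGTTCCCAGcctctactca
FOXM1-206: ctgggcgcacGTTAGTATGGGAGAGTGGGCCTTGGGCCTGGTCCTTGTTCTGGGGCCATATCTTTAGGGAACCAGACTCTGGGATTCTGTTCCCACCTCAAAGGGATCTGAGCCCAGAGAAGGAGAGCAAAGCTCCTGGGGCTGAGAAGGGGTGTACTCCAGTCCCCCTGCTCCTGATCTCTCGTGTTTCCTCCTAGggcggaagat
ARL6IP4-203: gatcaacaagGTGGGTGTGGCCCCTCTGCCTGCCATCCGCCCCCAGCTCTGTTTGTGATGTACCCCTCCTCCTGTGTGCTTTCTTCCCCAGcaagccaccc
CTPS1-213, intron start: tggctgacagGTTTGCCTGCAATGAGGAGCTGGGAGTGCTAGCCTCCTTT
CTPS1-213, intron end: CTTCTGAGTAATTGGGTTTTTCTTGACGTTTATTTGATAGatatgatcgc
RPS2-213: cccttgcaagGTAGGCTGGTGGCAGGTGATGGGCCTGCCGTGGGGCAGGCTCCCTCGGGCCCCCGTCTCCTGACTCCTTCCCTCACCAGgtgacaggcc

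All of these introns begin with GT and end with AG. The kept introns of the first 4 transcripts ranged from 43.2% GC in CTPS1-213 to 63.0% in ARL6IP4-203, and that of RPS2-213 held 70.9% GC.

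Retained-intron transcripts lay lower in the double knockout as a body. Of the 7613, 7570 passed the filter on low counts, and 5419 of those (71.6%) had a log2 fold change (double knockout minus JUN knockout) below 0, with a median of −0.23 and quartiles of −0.53 and 0.05. Over all 51188 transcripts tested, 50.5% lay below 0, with a median of −0.0038. Protein-coding transcripts with the same minimum of reads had a median of 0.05, those annotated for nonsense-mediated decay 0.03, and processed transcripts, which have no reading frame, −0.03. Few retained-intron transcripts moved far: 495 (6.54%) had a log2 fold change of −1 or lower, against 6.12% of all transcripts tested, and 117 (1.55%) of 1 or higher, against 5.55%.

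**Figure D1:**
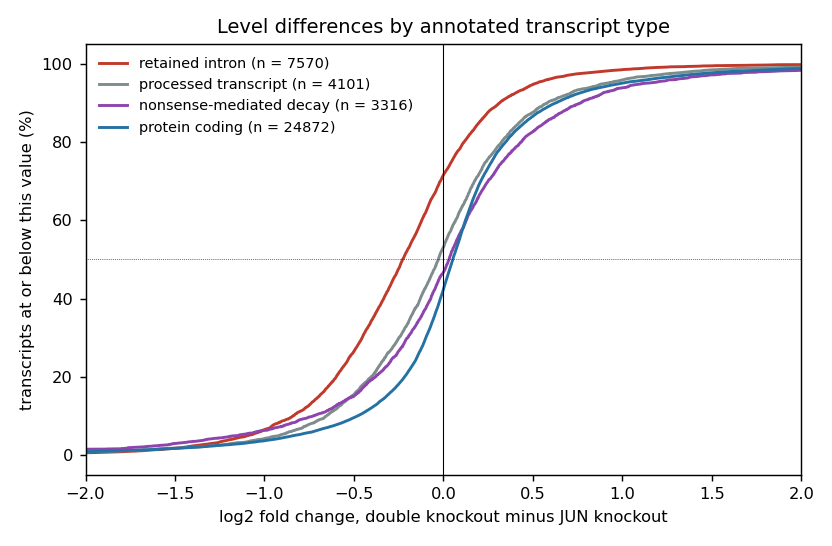
Cumulative share of transcripts (vertical axis, %) against the log2 fold change, double knockout minus JUN knockout (horizontal axis), for 4 annotated transcript types with a mean of at least 20 reads; the dotted line marks the median. The retained-intron curve lies to the left of the others around 0 and crosses 0 at 71.6%, against 42.4% for protein-coding transcripts.

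No single transcript passed the test on level. edgeR's quasi-likelihood test called 0.0% of all transcripts in either direction (lowest adjusted p = 0.157 over all, 0.175 among retained-intron transcripts). At an unadjusted p under 0.05 it separated 704 retained-intron transcripts on the lower side and 48 on the higher, out of 1679 and 1339 among all transcripts tested. DESeq2 called 154 retained-intron transcripts lower and 9 higher at an adjusted p under 0.05, where it called 0.811% of all transcripts lower and 0.803% higher. In simulated libraries with the spread of these, edgeR recovered 0% of 2-fold, 20% of 4-fold and 52% of 16-fold differences. Of its calls, 14.3% were on transcripts that had not been changed. DESeq2 recovered 16%, 60% and 86%, and 76.5% of its calls were on such unchanged transcripts. The absence of edgeR calls therefore shows little with 3 libraries a group of this spread, and the DESeq2 calls are given as that tool's values.

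A plainer count is how often all 3 double knockout libraries lay below all 3 JUN knockout libraries in CPM. Such separation was seen in 1452 retained-intron transcripts (19.2%), against 8.0% of all transcripts tested and 4.76% of protein-coding ones. Separation in the other direction was seen in 217 (2.87%), against 6.64% of all transcripts tested. Same-numbered libraries also gave the lower direction each time, with median log2 differences of −0.21, −0.22 and −0.13 for numbers 1, 2 and 3. In all 3 of these pairs 2594 transcripts (34.3%) were lower and 544 (7.19%) higher, against 16.6% and 15.7% of all transcripts tested.

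In reads, the 27070 annotated retained-intron transcripts together took 5.44%, 5.65% and 5.55% of each JUN knockout library and 4.58%, 4.81% and 4.99% of each double knockout library. The groups did not overlap. The selected 7613 took 5.29% ± 0.101 and 4.59% ± 0.194 (SD, n = 3 each). Protein-coding transcripts took 83.3% ± 0.0598 and 84.1% ± 0.174, and those annotated for nonsense-mediated decay took 3.54% ± 0.0489 and 3.52% ± 0.0594. Mitochondrial genes, whose transcripts have no introns, took 5.32% ± 0.967 and 4.78% ± 0.62, and their part in these shares was not tested beyond leaving them out together with unmatched transcripts, which gave a difference between the group means of −0.855 percentage points against −0.754 with them.

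**Figure D2:**
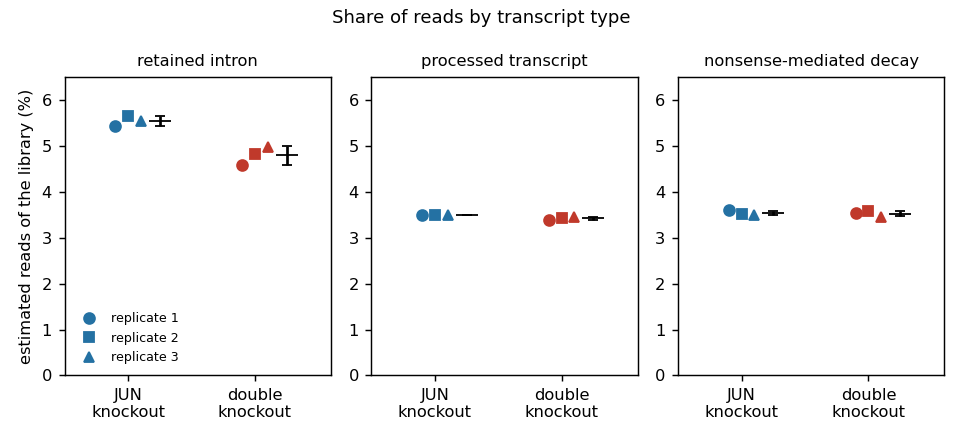
Percentage of estimated reads (vertical axis) in 3 annotated transcript types in each JUN knockout (blue) and double knockout (red) library, with the replicate number shown by the symbol and mean ± SD in black (n = 3). Retained-intron transcripts took 5.44% to 5.65% and 4.58% to 4.99%, while the other types differed by less than 0.1 percentage points between the group means.

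The lower transcripts with the lowest p-values came from genes of several kinds, from cell division to nucleotide synthesis. ZWINT-209 (chromosome 10, 56357438 to 56361259) comes from the gene of a kinetochore protein. It was at 60.8, 61.7 and 56.6 CPM in the JUN knockout and at 26.9, 32.7 and 29.1 CPM in the double knockout. Every double knockout library lay below every JUN knockout library (log2 fold change −1.01, SE 0.10, edgeR adjusted p = 0.175, DESeq2 adjusted p = 7.08e-16). The coding transcripts of ZWINT were at 70.0 ± 9.28 and 68.5 ± 5.18 CPM (SD, n = 3 each), and the retained-intron transcript went from 34.2%, 37.6% and 31.0% of the gene's reads to 18.3%, 24.9% and 23.1%.

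AUP1-204 (chromosome 2, 74526652 to 74529697) comes from the gene of a protein of the endoplasmic reticulum and lipid droplets that acts in protein degradation. It was at 100, 97.2 and 95.0 CPM in the JUN knockout and 56.0, 47.1 and 61.4 CPM in the double knockout, again without overlap (−0.83, SE 0.11, edgeR adjusted p = 0.245). The coding transcripts of AUP1 were at 33.9, 34.7 and 39.5 CPM and at 50.5, 53.1 and 45.8 CPM, so they lay higher where the retained-intron transcript lay lower. All 5 tested retained-intron transcripts of this gene were below 0.

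U2SURP-209 (chromosome 3, 143025782 to 143053782), from the gene of an arginine- and serine-rich protein of the U2 particle, was at 39.8, 40.3 and 36.1 CPM and at 25.7, 24.5 and 24.4 CPM (−0.64, SE 0.09, edgeR adjusted p = 0.249). PHF20L1-212, from the gene of a chromatin reader, was at 13.9, 13.5 and 11.8 CPM and at 6.60, 6.14 and 6.87 CPM (−0.995, SE 0.14). FOXM1-206, from the gene of a transcription factor of mitotic genes, was at 9.14, 11.7 and 12.5 CPM and at 4.81, 4.69 and 4.66 CPM (−1.23, SE 0.18). None of these groups overlapped, and the coding transcripts of FOXM1 were at 93.6 ± 2.13 and 95.1 ± 10.2 CPM.

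ARL6IP4-203, from the gene of an arginine- and serine-rich nuclear protein, was at 11.1, 11.9 and 11.9 CPM and at 5.89, 4.32 and 4.80 CPM (−1.22, SE 0.17). CTPS1-213, from the gene of the enzyme that makes CTP, was at 4.89, 6.80 and 6.10 CPM and at 1.43, 1.19 and 1.97 CPM (−1.95, SE 0.28). NIPSNAP2-211, from the gene of a mitochondrial protein, was at 3.36, 3.59 and 3.01 CPM and at 0.835, 1.15 and 1.04 CPM (−1.71, SE 0.25). For CTPS1 and NIPSNAP2 the host gene as a whole had a log2 fold change of −0.09, and their coding transcripts were at 82.8 ± 12.4 and 86.1 ± 3.95 CPM and at 54.0 ± 4.7 and 54.9 ± 4.95 CPM. Not every transcript of these genes lay lower: 2 of the 3 tested for CTPS1 and 2 of the 4 tested for ARL6IP4 did not.

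Higher transcripts were fewer. TSPAN32-208, from the gene of a tetraspanin of blood cells, was at 3.96, 3.72 and 3.56 CPM in the JUN knockout and 7.12, 7.70 and 6.45 CPM in the double knockout (0.92, SE 0.17, edgeR adjusted p = 0.345). It held 63.9% of its gene's reads, and the gene as a whole had a log2 fold change of 0.88. EIF2B2-205, from the gene of a subunit of the exchange factor eIF2B, was at 2.86, 3.59 and 3.38 CPM and at 6.20, 6.21 and 5.18 CPM (0.84, SE 0.20). PKM-221, from the pyruvate kinase gene, was at 6.57, 6.56 and 9.59 CPM and at 11.3, 17.6 and 17.9 CPM (1.04, SE 0.26), whereas 6 of the 8 tested retained-intron transcripts of PKM lay below 0. NIFK-206, from the gene of a nucleolar protein that binds Ki-67, was at 6.43, 7.55 and 6.80 CPM and at 10.6, 9.34 and 10.8 CPM (0.57, SE 0.15). Each of these 4 was separated between the groups.

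The transcripts with the most reads, which came from ribosomal protein genes, had log2 fold changes close to 0. RPL4-203 was at 943, 1057 and 1022 CPM in the JUN knockout and at 1099, 990 and 1018 CPM in the double knockout (0.04, SE 0.08). RPS2-213 was at 818, 797 and 821 CPM and at 747, 715 and 818 CPM (−0.10, SE 0.07). The groups overlapped for both. RPS23-203, RPL24-202 and RPS13-203 had log2 fold changes of 0.14, 0.03 and 0.10 with SEs of 0.06 to 0.09, and of these RPS13-203 was separated higher, at 393, 368 and 386 CPM and at 407, 410.5 and 411 CPM. These transcripts hold much of their gene's reads, from 21.9% for RPS2-213 to 75.9% for RPL24-202.

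**Figure D3:**
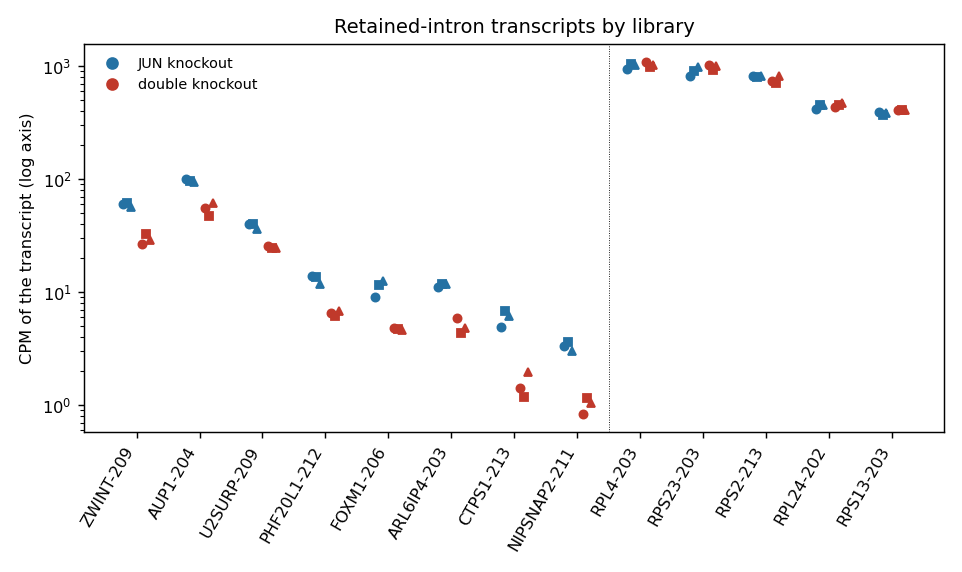
CPM of each transcript (log axis) in the 3 JUN knockout (blue) and 3 double knockout (red) libraries, with symbols for replicates 1 (circle), 2 (square) and 3 (triangle). To the left of the dotted line are 8 of the lower transcripts with the lowest p-values that were detected in every library, such as ZWINT-209 at 56.6 to 61.7 and 26.9 to 32.7 CPM; to the right are 5 of those with the most reads, such as RPL4-203, whose groups overlap.

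The host genes had a smaller median difference than their retained-intron transcripts. How often a transcript and its gene had the same sign was not counted. The median log2 fold change of the host genes was −0.03, and 5170 of the 7570 transcripts (68.3%) lay below their own gene, whose own value was below 0 for 4562. Among the 1452 transcripts separated lower, the median was −0.66 for the transcript and −0.10 for the gene, and the gene lay above 0 in 341. Among the 217 separated higher, the medians were 0.59 and 0.07. Both sets were picked by the transcripts' own values, so a larger difference than that of the gene is partly built in. Transcripts of a gene share reads and are not independent. Of the 924 genes with at least 3 tested retained-intron transcripts, all lay below 0 in 315 and above 0 in 23. Because 71.6% of all tested retained-intron transcripts lay below 0, many such genes would occur without any tie between their transcripts. These counts therefore do not show whether transcripts of a gene go together, which was not tested.

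The share of the host gene's reads, compared as log2 odds with limma, removes differences of the whole gene. Of 7535 retained-intron transcripts tested this way, 5440 (72.2%) had a lower share in the double knockout, with a median difference of −0.25, against 52.7% and −0.03 over all 38808 transcripts tested and 46.9% and 0.03 for protein-coding ones. The groups were separated lower in 1566 (20.8%), against 9.38% of all, and higher in 204 (2.71%), against 6.54% of all. limma called 4 retained-intron transcripts lower, where it called 0.108% of all transcripts, and 2 higher, where it called 0.111%. In the simulated libraries limma recovered 0% of 2-fold, 0% of 4-fold and 12.7% of 16-fold differences, so its few calls show little. With the replicate number as a block it called none of any type (lowest adjusted p = 0.183).

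Each of those 6 was listed at 0 reads in every library of 1 group. LDLRAD4, the gene of an inhibitor of TGF-β signalling, held a pair of them with the same start and end (chromosome 18, 13620868 to 13652754) and lengths of 8086 and 8032 bases. LDLRAD4-202 had 0, 0 and 0 reads in the JUN knockout and 605, 571 and 365 in the double knockout, while LDLRAD4-204 had 606, 261 and 132 and then 0, 0 and 0. Their sum was 84.0%, 71.3% and 61.7% of the gene's reads and 85.5%, 80.9% and 82.2%, so the gene's retained-intron reads were listed under a different transcript in each group. SMPD4-219, from a sphingomyelinase gene, had 98.3, 214 and 291 reads and was listed at 0 in the double knockout, as were NUP42-210, from a nuclear pore gene (55.3, 46.7 and 117 reads), and BBS2-220, from a gene of cilium formation (61.0, 32.9 and 37.3 reads). TRPT1-207, from a gene of tRNA splicing, was listed at 0 in the JUN knockout and had 39.8, 93.2 and 67.3 reads in the double knockout. PHGDH-207, from a gene of serine synthesis, was likewise listed at 0 in the JUN knockout and had 176.5, 170.0 and 92.2 reads in the double knockout, without passing limma's test (adjusted p = 0.142).

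This listing at 0 was not particular to kept introns. Over all transcripts with a mean of at least 20 reads, 134 of 43029 were at 0 throughout 1 group with at least 20 reads in each library of the other. Of these, 9 were retained-intron transcripts (0.118% of 7613) and 94 protein-coding ones (0.365% of 25779). Whether such a switch came from the estimation or from the cells was not tested.

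Among transcripts detected in both groups, NIPSNAP2-211 went from 6.23%, 5.69% and 5.05% of its gene's reads to 1.62%, 1.87% and 1.86%, without passing limma's test (adjusted p = 0.0727). SMTN-218, from the gene of a cytoskeletal protein of smooth muscle, was at 18.6%, 16.6% and 20.8% and at 6.78%, 7.62% and 5.08% (limma adjusted p = 0.124). On the other side GNPTG-205, from the gene of a subunit of the enzyme that tags lysosomal proteins, was at 17.0%, 19.5% and 23.1% of its gene's reads and at 33.2%, 32.5% and 32.2% (limma adjusted p = 0.341). The shares did not overlap in any of the 3.

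Host genes were grouped into 16 lists by what their products do, which placed 4025 of the 7613 transcripts. In every list most transcripts lay below 0, and every list had a median below the −0.0038 of all transcripts tested. The medians ran from −0.35 for cell cycle, DNA replication and repair to −0.12 for cytosolic ribosomal proteins. The differences between lists were not tested.

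Genes of cell division and of RNA handling had the lowest medians on level. In cell cycle, DNA replication and repair, 263 of 330 transcripts lay below 0 and 86 (26.1%) were separated lower, while the coding transcripts of its genes had a median of 0.0025. Its most read transcript, MCM7-210 from the MCM helicase that opens DNA for replication, stood at 214, 240 and 239 CPM and at 208, 172 and 171 CPM (−0.33, SE 0.11). In hnRNPs and other RNA-binding proteins and helicases, 170 of 208 lay below 0 (median −0.34) and 56 were separated lower, with 1 separated higher. In RNA 3′ processing, export and decay, 136 of 166 lay below 0 (median −0.30). On the share of gene reads the medians of these lists were −0.29, −0.28 and −0.32, in that order. They were −0.31 for membrane transporters and channels and −0.25 over all retained-intron transcripts. By median the cell cycle and hnRNP lists thus stood out less than on level, while RNA 3′ processing, export and decay had the lowest median of any list. On share, 22.1%, 25.4% and 25.2% of these lists were separated lower, against 20.8% of all retained-intron transcripts. These lists also hold transcripts whose groups overlapped: HNRNPU-231, the most read of the hnRNPs, was at 124, 119 and 154 CPM and at 110, 195 and 170 CPM, and EXOSC8-210, from an exosome subunit, at 49.9, 47.9 and 37.3 CPM and at 45.2, 47.4 and 27.4 CPM.

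In the lists of the splicing machinery the coding transcripts also had medians below 0. For SR proteins and arginine- and serine-rich factors, 81 of 107 retained-intron transcripts lay below 0 (median −0.22, 24.3% separated lower), and the coding transcripts had a median of −0.06. On the share of gene reads their median was −0.12, against −0.25 over all retained-intron transcripts. Spliceosome components gave 140 of 188 below 0 (median −0.23), a coding median of −0.05 and a share median of −0.14. Splicing kinases gave 17 of 26 below 0 (median −0.13) and a share median of 0.10, the only list above 0 on that measure.

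Within these lists the transcripts with most reads were unlike each other. ARGLU1-204, from an arginine-rich splicing regulator, held 91.5% of its gene's reads and was at 248, 236 and 253 CPM and at 219, 212 and 194 CPM (−0.24, SE 0.08). DDX5-215, from an RNA helicase, was at 289, 389 and 357 CPM and at 271, 282 and 278 CPM (−0.32, SE 0.12). Both were separated, narrowly for DDX5-215. CLK1-210, from the kinase of SR proteins, was at 59.98, 44.98 and 34.02 CPM and at 40.9, 54.3 and 41.3 CPM, which overlapped, while the coding transcripts of CLK1 were at 45.5 ± 6.56 and 31.1 ± 1.11 CPM. Its share thus went from 34.8%, 31.7% and 26.6% of the gene's reads to 36.3%, 48.9% and 39.1%, the opposite of the usual direction. For the SRSF1 to SRSF12 genes, 14 of 19 retained-intron transcripts lay below 0 (median −0.14), and for CLK1 to CLK4 8 of 13 did (median −0.05).

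Other transcripts of the splicing lists were separated lower. These and the examples in the next paragraph were chosen after their values were seen. They had low p-values in their lists, though not always the lowest. TRA2B-215, from an SR-like splicing activator known for a self-regulating exon, was at 128, 128 and 137 CPM and at 100, 98.6 and 106 CPM (−0.37, SE 0.07, DESeq2 adjusted p = 1.16e-05). IVNS1ABP-207 was at 32.2, 36.4 and 34.8 CPM and at 21.6, 23.04 and 23.8 CPM (−0.59, SE 0.10). XAB2-202, from a spliceosome subunit, was at 6.07, 5.50 and 5.11 CPM and at 2.74, 2.57 and 2.83 CPM (−1.03, SE 0.18). In all 3 every double knockout library was lower.

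Chromatin and transcription regulators (296 of 410 below 0, median −0.27), protein folding and ubiquitin-proteasome factors (309 of 412, −0.26) and translation factors and tRNA synthetases (198 of 279, −0.23) resembled the whole set. PSMD6-206, from a proteasome subunit, was at 14.9, 14.9 and 14.4 CPM and at 4.18, 7.14 and 7.59 CPM (−1.22, SE 0.25). SYMPK-202, from a scaffold of the 3′ end processing complex, was at 25.03, 21.3 and 21.5 CPM and at 6.52, 9.38 and 13.4 CPM (−1.21, SE 0.28). NDUFA10-212, from a respiratory complex I subunit, was at 34.8, 34.9 and 35.3 CPM and at 21.3, 20.7 and 24.5 CPM (−0.66, SE 0.10). AKT2-218, from the gene of a growth-signalling kinase, was at 24.7, 24.7 and 21.6 CPM and at 13.7, 14.3 and 14.8 CPM (−0.73, SE 0.11), whereas AKT2-216, with more reads, was at 52.7, 73.9 and 74.99 CPM and at 75.7, 73.3 and 73.7 CPM. A single gene thus held both kinds.

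Ribosomal protein, immune and zinc finger genes were at the weaker end. For cytosolic ribosomal proteins 109 of 163 lay below 0 and 12 (7.36%) were separated lower, near the 8.0% of all transcripts tested. For immune and myeloid genes 94 of 142 lay below 0 (median −0.15, 11.3% separated lower), while the coding transcripts of these genes had a median of 0.12. On the share of gene reads the immune list's median was −0.28. CISH-203, the most read of them and from a feedback inhibitor of cytokine signalling, was at 53.5, 58.6 and 58.6 CPM and at 57.9, 55.3 and 59.3 CPM. For zinc finger protein genes 77 of 120 lay below 0 (median −0.17), and ZNF518A-206, with most reads, was at 65.8, 58.6 and 47.1 CPM and at 40.4, 35.9 and 39.1 CPM (−0.57, SE 0.14).

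In the remaining lists the medians were −0.25 for membrane transporters and channels, −0.21 for mitochondrial and metabolic enzymes, −0.21 for kinases and other signalling and −0.17 for membrane traffic, cytoskeleton and motors. Among the most read transcripts, GOLGA8A-203 of the traffic list and SLC25A37-204 of the transporter list overlapped between the groups, with log2 fold changes of 0.02 and −0.09, as did MED13L-216 of the chromatin list (0.17) and HSPA9-207 of the folding list (0.19). The sign of the first 3 changed on leaving out a single library. ENO1-210, from the enolase gene, was at 185, 207 and 233 CPM and at 228, 247 and 257 CPM (0.23, SE 0.11). EIF3L-213, from a translation initiation factor, was at 213, 239 and 197 CPM and at 134, 189 and 206 CPM (−0.29, SE 0.18), with replicate 1 of the double knockout lowest.

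**Figure D4:**
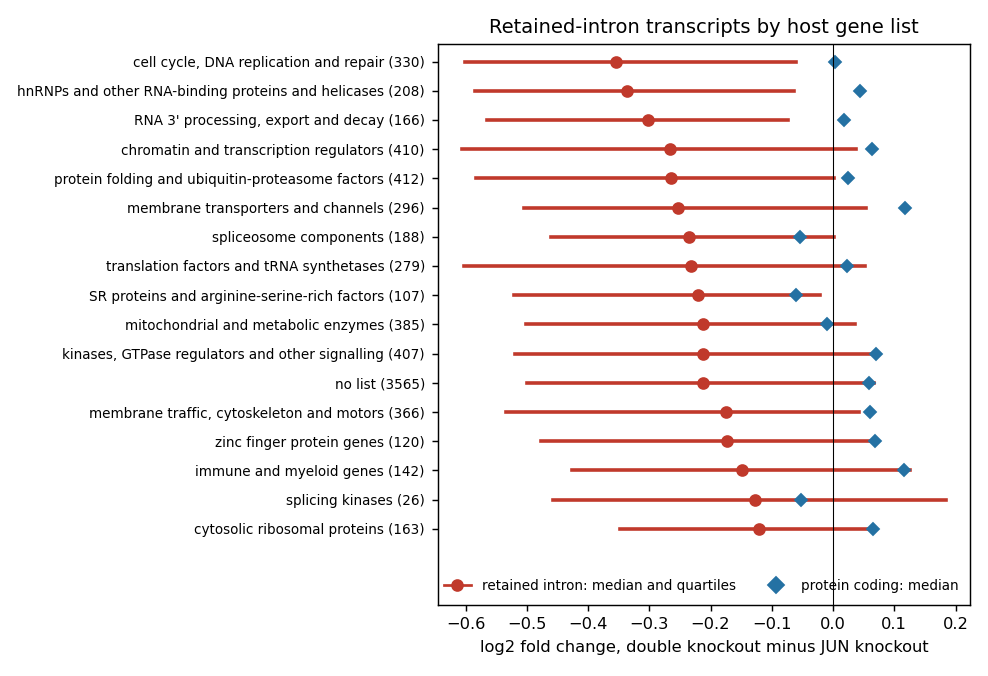
Log2 fold change, double knockout minus JUN knockout (horizontal axis), of retained-intron transcripts by host gene list, with the number tested in parentheses, the median (red point) and quartiles (red line), and the median of the coding transcripts of the same list (blue diamond). All red medians lie below 0, from −0.35 for the cell cycle list to −0.12 for ribosomal proteins, and each lies below the blue diamond of its list.

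Longer transcripts were separated lower more often. Below 1000 bases, 555 of 3454 retained-intron transcripts (16.1%) were, with a median log2 fold change of −0.20. From 1000 to under 2000 bases it was 20.5% (median −0.23), from 2000 to under 4000 bases 22.2% (median −0.27), and at 4000 bases and over 23.1% (median −0.23). Coding transcripts of the same lengths were separated lower in 4.71%, 5.62%, 5.14% and 3.56%. The 1452 transcripts separated lower had a median length of 1488 bases and the 217 separated higher one of 855 bases. Across the 7570 transcripts the Spearman correlation of log2 fold change with length was only −0.05, so length orders these transcripts weakly. They share the libraries and, within a gene, their reads, and the differences between classes were not tested.

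By share of the host gene's reads, the main contrast was with transcripts that dominate their gene. The groups were separated lower in 17.4% of transcripts under 2% of the gene's reads (median −0.26), in 20.3% from 2% to 10% (median −0.24), in 20.7% from 10% to 50% (median −0.18), and in 18 of 205 (8.78%) at 50% and over (median −0.09). Leaving ribosomal protein genes out of that last group left 199 transcripts with 8.54% and a median of −0.11. Coding transcripts in the same classes of share were separated lower in 6.51%, 6.19%, 4.85% and 3.16%. A lower percentage at 50% and over was thus not particular to retained-intron transcripts. The Spearman correlation of log2 fold change with the share was 0.07. Length and share were also combined. Among transcripts with at least 10% of the gene's reads, those under 1000 bases were separated lower in 29 of 308 (9.42%, median −0.08). Those of 2000 bases and over were in 239 of 1063 (22.5%, median −0.22). Under 10% of the gene's reads the contrast was smaller, at 16.7% (median −0.22) and 22.5% (median −0.28). The longer class also had more median reads, 174 against 139 and 70.0 against 44.6. Transcripts with more reads are estimated more precisely, and separation rose from 16.2% at 20 to 50 mean reads to 25.02% at 200 to 1000, while the median went from −0.26 to −0.19. At 1000 reads and over, 22.5% of 173 were separated lower and the median was −0.10.

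**Figure D5:**
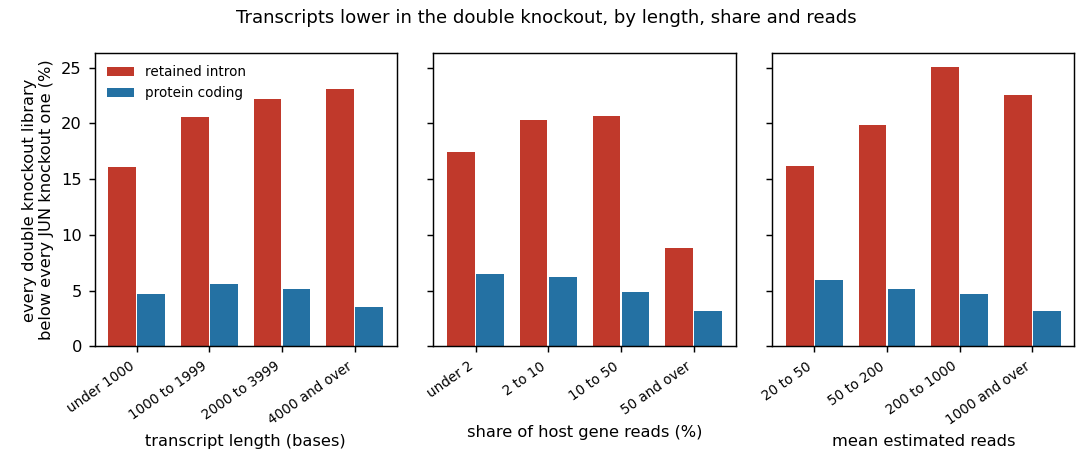
Percentage of transcripts whose 3 double knockout libraries all lay below all 3 JUN knockout libraries (vertical axis), by transcript length, share of host gene reads and mean estimated reads, for retained-intron (red) and protein-coding (blue) transcripts. The red bars rise from 16.1% to 23.1% with length and fall to 8.78% where the transcript holds at least 50% of its gene's reads. The blue bars stay under 7% and also fall with share, from 6.51% to 3.16%.

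Transcripts that hold a whole intron had a lower median than the rest. Of the tested transcripts, 3504 contain, inside an exon, an intron that another transcript of the gene splices out, and 76.6% of them lay below 0 (median −0.27, 22.1% separated lower). In the other 4066 no such intron was found, and where they start or end was not examined. Of them 67.3% lay below 0 (median −0.17, 16.7% separated lower). The first kind had a median length of 2026 bases and the second of 816 bases, so length moves with this split and its part was not tested, nor was the difference between the kinds. By intron length the medians were −0.26 under 100 bases, −0.32 from 100 to under 300, −0.27 from 300 to under 1000 and −0.21 at 1000 bases and over. By GC content they were −0.26 under 45%, −0.28 from 45% to 55%, −0.30 from 55% to 65% and −0.23 at 65% and over, so the lower direction was present in every class of kept intron.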

How the data were processed

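Per the submitters' processing notes, the authors used FastQC 0.11.9 and Salmon 1.6.0 with hg38. The deposited files give, per the file headers, estimated counts and TPM per transcript. Identifiers without version were joined to GENCODE release 29: 167027 of 177456 (94.1%) matched, and the rest held 3.58% to 3.71% of reads. Estimated counts were rounded for edgeR 4.0.16 (R 4.3.3; filterByExpr, TMM, quasi-likelihood F test) and DESeq2 1.42.0, with Benjamini-Hochberg adjustment over all tested transcripts at 0.05. SE is the fold change divided by the square root of F. Shares were tested with limma 3.58.1 on log2 odds (pseudocount 0.5 reads, minimum 20 reads in the transcript and in the rest of its gene). Pair differences used a pseudocount of 0.5 CPM. Kept introns had at least 30 bases and were read from the annotation.

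The members and lists were chosen with earlier results of these data known. Named transcripts, with a mean of at least 50 reads, were the lowest p-values (10 lower and 6 higher on level, 6 and 4 on share), the 6 with most reads, the most read of each list and every one called; a few of these are not reported here. The scripts were tested on simulated data (2 runs, 200 of 51188 transcripts changed). No library pair looked like 1 library deposited again (chi-square per gene 12.5 or more). This measure did not order the libraries by group. JUN knockout replicate 1 lay nearer to double knockout replicates 1 and 2 (22.4 and 21.7) than to JUN knockout replicates 2 and 3 (45.1 and 72.6). Double knockout replicate 3 lay nearer to JUN knockout replicate 3 (14.45) than to double knockout replicates 1 and 2 (41.7 and 35.0). Names of the deposited files carry 1 clone code for each replicate number in both groups. The numbers were therefore taken as pairs, although the labels do not state it. Deviations from group means correlated at 0.08, −0.05 and 0.17 in these pairs. Between differently numbered libraries they correlated at −0.20 to 0.13, so these values do not bear out the pairs. Alternatives were RLE scaling, DESeq2, other filters and pseudocounts, diffSpliceDGE, the replicate block and leaving out each library.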

Additional observations from a re-analysis of the deposited data

How the results depend on the processing

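The median level difference of −0.23 stayed below 0 under every alternative run, from −0.281 to −0.183 on leaving out a library (−0.281 without double knockout replicate 3) and from −0.234 with the replicate block to −0.187 with a minimum of 100 reads. The median share difference ran from −0.288 to −0.193, and the read share difference from −0.855 to −0.601 percentage points (TPM). edgeR called 0 on level throughout, and DESeq2 163. Calls on share went from 6 to 3 with a minimum of 50 reads, to 13 with diffSpliceDGE, to 0 with the replicate block, and to 4 to 12 on leaving out a library (12 with replicate 1 of the double knockout left out, 10 with its replicate 2, and 4 with JUN knockout replicate 3). The block changed no other call. Of 43 named transcripts, 22 passed with DESeq2. On level, 8 of the 43 changed sign, in 16 values that did not pass the threshold. With the replicate block CLK1-210 gave 0.0015. Leaving out each library gave ranges of −0.0016 to 0.088 for RPL4-203, −0.204 to 0.206 for CLK1-210, −0.297 to 0.0416 for EXOSC8-210, −0.0615 to 0.777 for MED13L-216, −0.0995 to 0.125 for GOLGA8A-203, −0.0236 to 0.0558 for CISH-203, −0.00086 to 0.23 for AKT2-216 and −0.164 to 0.0366 for SLC25A37-204. The sign changed most often without JUN knockout replicate 1, for 5 of the 8. Intervals of single transcripts rest on 3 libraries a group and on how Salmon shared out reads, which limits those near 20 reads most.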

Other observations

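Retained-intron transcripts below the minimum of 20 mean reads also lay mostly below 0: 1685 of 2579 tested (65.3%), with a median of −0.24 and 11.9% separated lower. Among transcripts of immune and transport genes, B2M-213, from the light chain of class I histocompatibility molecules, was at 3.71, 4.82 and 4.41 CPM and at 6.01, 8.45 and 6.11 CPM (log2 fold change 0.67, SE 0.22), and SLC25A11-204, from a mitochondrial carrier gene, at 5.25, 3.31 and 4.89 CPM and at 1.31, 1.04 and 1.90 CPM (−1.66, SE 0.34). Both were chosen after their values were seen.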
